A study of Arabidopsis thaliana with 90 samples.

Results

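The genes described here are 35 nuclear genes for proteins of the thylakoid membrane that carry out the light reactions of photosynthesis. They were listed by name, with no expression threshold, from the genes for photosystem I (PSA, 12 genes), photosystem II (PSB, 12 genes), plastocyanin, the cytochrome b6f complex, ferredoxin and ferredoxin-NADP reductase (8 genes) and the plastid ATP synthase (3 genes). All 35 are among the 28775 genes listed in each library, and all 35 passed the filter on low counts that left 20695 genes for testing. RNA-seq of polyadenylated RNA was performed on whole 4-day-old Arabidopsis seedlings (Ler ecotype) in 90 libraries: 5 lines, at 17 or 27°C, in darkness or after 1 or 24 h of red light (R, 50 µmol m−2 s−1), with 3 libraries in each of the 30 groups. All lines carry the phyA-201, phyD-1 and phyE-1 mutations. The abcde background adds phyB-1 and phyC-1 and lacks every functional endogenous phytochrome, abCde adds phyB-1 only and keeps phyC, and aBcde adds phyC-1 only and keeps phyB. The 35S promoter drives PHYD-YFP, which was put into abcde (PHYD-YFP/abcde) or into abCde (PHYD-YFP/abCde), while PHYB-CFP, driven by the PHYB promoter, into abcde alone (PHYB-CFP/abcde) or with PHYD-YFP (PHYB-CFP, PHYD-YFP/abcde). Each transgene is represented by 1 homozygous line of plants and each library by pooled seedlings, and the sources used here do not say whether the 3 libraries of a group came from separate cultures, so the p-values may measure technical spread only.

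Photosystem II splits water and passes electrons through the cytochrome b6f complex and plastocyanin to photosystem I, which reduces ferredoxin. Ferredoxin-NADP reductase then makes NADPH, and the ATP synthase uses the proton gradient to make ATP. The core proteins are encoded in the chloroplast, whose genes were counted but removed before testing, while the outer, lumenal and stromal subunits are encoded in the nucleus, where light acting through phytochromes is known to raise their transcription as etiolated seedlings green. Several of these subunits are encoded by a pair of nuclear genes with closely related products.

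The promoters of 3 of the 8 such pairs are shown first because these are the pairs in which a gene held a G-box. All 8 pairs moved unequally with light or temperature, as described further on, the 5 pairs without a G-box included. The 150 bases before the annotated gene start were read from the RefSeq genome TAIR10.1 and are written 5′ to 3′ along the gene's strand, with the G-box CACGTG, a palindrome bound by light-related transcription factors, in capitals. PSAE1 (minus strand, chr4:14204062-14204211) and PSAE2 (plus strand, chr2:8736584-8736733) encode the stromal subunit PsaE, PSAH1 (minus strand, chr3:5469595-5469744) and PSAH2 (plus strand, chr1:19454648-19454797) the membrane subunit PsaH, and PSBQ1 (plus strand, chr4:11334202-11334351) and PSBQ2 (minus strand, chr4:2673244-2673393) a subunit of the oxygen-evolving complex.
PSAE1: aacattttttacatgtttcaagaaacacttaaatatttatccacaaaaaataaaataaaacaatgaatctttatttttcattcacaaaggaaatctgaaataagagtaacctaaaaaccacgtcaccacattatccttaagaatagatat
PSAE2: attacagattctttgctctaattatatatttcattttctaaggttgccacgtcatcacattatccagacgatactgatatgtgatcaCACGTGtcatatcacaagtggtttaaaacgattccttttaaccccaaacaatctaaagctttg
PSAH1: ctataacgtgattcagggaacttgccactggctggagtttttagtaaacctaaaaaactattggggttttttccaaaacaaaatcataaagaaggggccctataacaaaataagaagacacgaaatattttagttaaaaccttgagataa
PSAH2: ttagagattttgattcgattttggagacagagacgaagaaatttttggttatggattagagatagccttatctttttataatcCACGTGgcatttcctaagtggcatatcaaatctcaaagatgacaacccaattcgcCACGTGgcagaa
PSBQ1: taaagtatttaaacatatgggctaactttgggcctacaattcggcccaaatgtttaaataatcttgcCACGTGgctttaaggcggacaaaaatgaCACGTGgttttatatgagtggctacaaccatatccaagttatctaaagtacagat
PSBQ2: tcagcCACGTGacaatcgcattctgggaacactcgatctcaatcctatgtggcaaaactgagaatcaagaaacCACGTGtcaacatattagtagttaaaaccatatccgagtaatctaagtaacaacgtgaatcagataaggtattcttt
PSAE2 held 1 G-box in this stretch, PSAH2, PSBQ1 and PSBQ2 held 2 each, and PSAE1 and PSAH1 held none. In the 250 bases before the gene start, 6 of the 35 genes (17.1%) held a G-box on either strand, against 6.5% of 27444 protein-coding genes. The I-box GATAAG was found in 9 of the 35 genes (25.7%, against 12.3%), CCAATC in 5 (14.3%, against 10.2%) and the CCA1-binding site AAAAATCT in 2 (5.7%, against 6.7%). These are matches of letters in a window, and no binding was measured. Their part in the responses or in the shifts within pairs was not tested.

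The counts summed to 15010386 to 41124234 per library (median 17751738). The members had counts from 50 (PSAH2) to 110776 (PSBO1) per library. Markers of residual seed material (10 of 10 seed storage and oil body genes measured) varied with temperature and light, as given beside the results, and 4 root hair genes summed to 0 to 23.3 CPM. The transgenes were checked first. PHYD was at a median of 7216 CPM (counts per 1000000 counts of the scaled library total) in PHYD-YFP/abcde, 21089 CPM in PHYD-YFP/abCde and 7499 CPM in PHYB-CFP, PHYD-YFP/abcde, so the line with phyC also had more of the transgene's RNA. PHYD was at a median of 17.7 CPM in aBcde and 17.9 CPM in PHYB-CFP/abcde, and PHYB was at 195 to 1637 CPM in the 2 lines with PHYB-CFP and at most 179 CPM elsewhere. PHYB was at medians of 85.1 CPM in PHYD-YFP/abcde, 74.6 CPM in PHYD-YFP/abCde and 94 CPM in aBcde, so its level does not check the phyB-1 mutation. PHYC gave 27.4 to 54.8 CPM in every line, so its level does not check the phyC-1 mutation. An aBcde library (27°C, 24 h R, replicate 1) held 588 CPM of PHYD, and a PHYB-CFP/abcde library (27°C, dark, replicate 1) held 171 CPM, against 21.1 and 20.1 CPM in its replicates. The PHYB-CFP/abcde library was kept in the fits of its group other than those without replicate 1. A further 5 libraries lay at least 1.3 times as far from the other libraries of their group as those lay from each other, over all tested genes: replicate 3 of PHYD-YFP/abCde after 1 h R at 17°C (1.81 times), replicate 1 of PHYD-YFP/abCde after 24 h R at 17°C (1.6 times), replicate 1 of PHYD-YFP/abcde after 24 h R at 27°C (1.43 times), and replicate 3 of PHYB-CFP/abcde (1.38 times) and of aBcde (1.35 times) after 1 h R at 27°C. The first of these correlated better with the 3 aBcde libraries of the same treatment (Pearson's r of log2 CPM = 0.971 to 0.974 over 20695 genes) than with its own replicates (0.934 and 0.936), although its PHYD level, like that of every library of its line, was at least 9564 CPM. Whether libraries were partly mixed or mislabelled was not tested, and it bears on the 1 h values and the line differences. Counts of calls are therefore given beside those obtained without 6 libraries, these 5 and the aBcde library with PHYD reads, a choice made after seeing the data. Shares of all tested genes that were called, given as background below, are those of the fit on all libraries. No such share stands beside the counts of other fits, so whether those counts are particular to the members is not shown.

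The first question was how far these genes rose within a day of R in each line. No line here lacks every phytochrome, and a line has a single dark group at each temperature. The parts that elapsed time, or light acting without a phytochrome, may have in a change after R were therefore not tested. After 24 h R, members rose in all 10 combinations of line and temperature, and no member fell in any. In aBcde at 17°C the summed level of the 35 genes was 9594, 10528 and 9467 CPM in the 3 dark libraries and 40646, 40145 and 49866 CPM after 24 h R, so the groups were far apart. All 35 genes rose there (edgeR quasi-likelihood test, adjusted p under 0.05), against 22.2% of all tested genes, with a median log2 fold change of 2.05 for the members and 0.01 for all genes. In aBcde at 27°C, where the sums were 3616, 4167 and 4193 CPM in darkness and 33253, 34245 and 35076 CPM after 24 h R, all 35 rose as well (background 19.1%), with a median of 3.18. In whole seedlings, more RNA per cell and more cells of a green tissue cannot be told apart. PORA, the protochlorophyllide oxidoreductase gene of dark-grown seedlings, was at 2130, 1991 and 2154 CPM in darkness and 62.2, 15.8 and 24 CPM after 24 h R in aBcde at 17°C, and the sum of the seed storage and oil body genes went from 267, 695 and 787 to 28.4, 32 and 18.3 CPM in aBcde at 27°C and from 1011, 879.7 and 589.7 to 2.83, 6.46 and 3.52 CPM in PHYD-YFP/abCde at 17°C. These markers did not fall in every group. The seed storage and oil body sum went from 8.15, 159.5 and 12 to 278.5, 354.9 and 413.8 CPM in PHYD-YFP/abcde at 17°C. PORA went from 96.1, 60.4 and 68 to 187.3, 190.9 and 163.8 CPM in PHYD-YFP/abCde at 27°C. The part of these markers in the members' rise was not tested.

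With PHYD-YFP as the sole phytochrome, in PHYD-YFP/abcde, the sums were 12433, 9716 and 8174 CPM in darkness and 22176, 24507 and 21134 CPM after 24 h R at 17°C. At 27°C they were 5836, 6131 and 3658 and 10033, 10856 and 12928 CPM, again without overlap. Of the 35 members, 27 rose at 17°C (background 5.41%, median log2 fold change 1.16) and 25 at 27°C (5.46%, median 1.33), and these counts were 31 and 34 without the 6 libraries. Leaving out replicate 1, 2 and 3 of every group in turn gave 14, 12 and 27 calls in the cool and 15, 20 and 23 in the warm. Where phyC was present, in PHYD-YFP/abCde, the sums after 24 h R were 29764, 49158 and 46442 CPM at 17°C, against 12276, 10535 and 10162 CPM in darkness, and 15300, 17648 and 8404 CPM at 27°C, against 5724, 4453 and 5751 CPM. Here 33 members rose at 17°C (background 16.8%, median 1.80) and 29 at 27°C (15.1%, median 1.56). The lowest of the 3 values at 17°C belongs to replicate 1, one of the libraries that stood apart, and without the 6 libraries 34 and 35 members rose. A fit on the libraries of that comparison alone called 18 at 17°C. With PHYB-CFP alone, 26 members rose at 17°C (background 12.9%, median 1.15; sums 29167, 24630 and 30305 CPM after R) and 35 at 27°C (16.9%, median 3.06; sums 33119, 34847 and 27605 CPM). With PHYB-CFP and PHYD-YFP together, 34 members rose at 17°C (background 19.4%, median 2.02) and 35 at 27°C (16.3%, median 2.79), to sums of 38457, 45369 and 43116 CPM and 37148, 35564 and 37110 CPM. Rises of at least 2-fold were fewest in PHYD-YFP/abcde (22 members at each temperature) and PHYB-CFP/abcde at 17°C (23), and numbered 34 and 35 in aBcde.

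**Figure D1:**
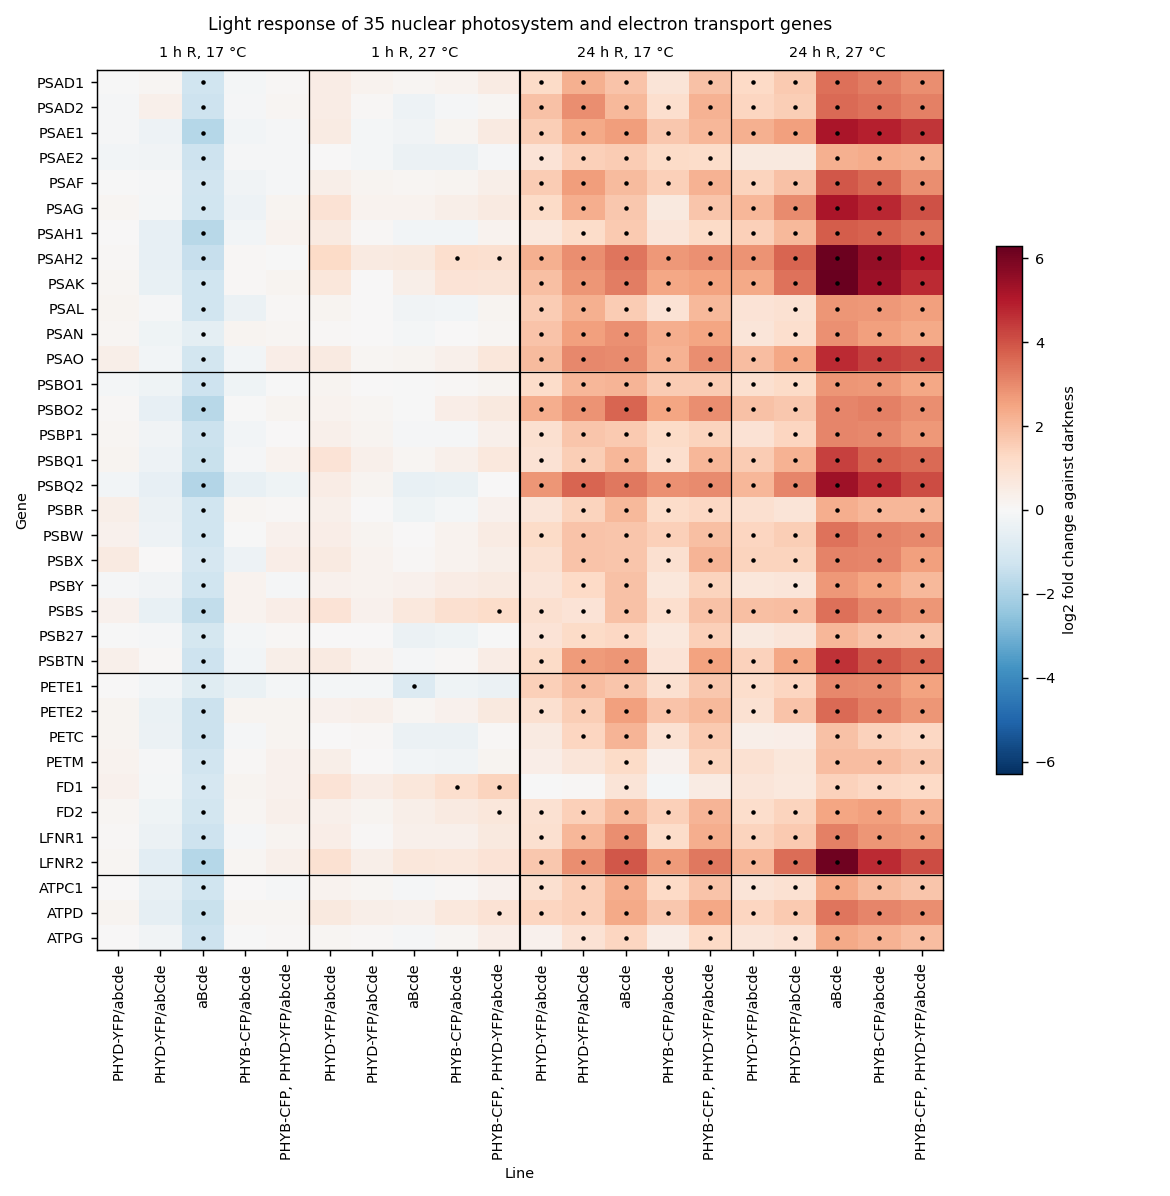
Log2 fold change against darkness of each of the 35 genes (vertical axis) in the 5 lines at both temperatures after 1 h and 24 h R (horizontal axis), with a black dot where the adjusted p was under 0.05. After 24 h R most cells are red, deepest in aBcde at 27°C, and after 1 h R only aBcde at 17°C has a dot for all 35 genes.

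Within photosystem I, PSAH2 (AT1G52230) responded most and PSAE2 (AT2G20260) least in aBcde at 17°C. PSAH2, for a subunit at the docking site of light-harvesting complex II, was at 78, 94.7 and 88.8 CPM in darkness and 883, 864 and 988 CPM after 24 h R, which is 3.39 ± 0.32 (SE, adjusted p = 7.79e-14) on the log2 scale. Errors after ± are SEs of log2 fold changes throughout. Its paralog PSAH1 (AT3G16140) went from 159, 224 and 164 to 474, 478 and 788 CPM, or 1.67 ± 0.38 (SE, adjusted p = 0.000194), so PSAH2 rose further. Per kilobase of transcript, PSAH2 was at a mean of 1299 and PSAH1 at 446 CPM per kb after 24 h R. The stromal subunit PsaE, which helps ferredoxin to dock, also had genes of unequal response. PSAE1 (AT4G28750) went from 214, 256 and 234 to 1271, 1214 and 1815 CPM (2.61 ± 0.35), and PSAE2 from 220, 251 and 224 to 734, 587 and 752 CPM (1.58 ± 0.26, adjusted p = 9.34e-07). PSAD1 (AT4G02770) and PSAD2 (AT1G03130) encode the main ferredoxin-docking subunit. PSAD1 went from 378, 377 and 391 to 858, 1026 and 2140 CPM (1.81 ± 0.34) and PSAD2 from 97.9, 113 and 104 to 348, 305 and 656 CPM (2.06 ± 0.34), with the highest value in replicate 3 for both. The other 6 genes rose by 1.61 ± 0.33 (PSAL, AT4G12800) to 3.21 ± 0.33 (PSAK, AT1G30380). PSAF (AT1G31330), for the subunit at which plastocyanin docks, rose by 2.01 ± 0.27, PSAN (AT5G64040), for a small lumenal subunit, by 2.90 ± 0.18, PSAO (AT1G08380), for a subunit next to PsaH, by 2.98 ± 0.35 and PSAG (AT1G55670), for a membrane subunit, by 1.70 ± 0.38.

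Within photosystem II, the extremes were PSBO2 (AT3G50820) and PSB27 (AT1G03600). PSBO1 (AT5G66570), for the manganese-stabilizing protein of the oxygen-evolving complex, was at 1032, 1069 and 989.9 CPM in darkness and 4593, 4223 and 4747 CPM after 24 h R (2.13 ± 0.22, adjusted p = 6.77e-13). PSBO2, for the second copy, had the largest change of this photosystem, from 93.2, 108 and 87.6 to 1083, 1275 and 1280 CPM (3.65 ± 0.32, adjusted p = 2.86e-15). In the PSBQ pair of the same complex the second gene also rose further. PSBQ1 (AT4G21280) went from 252, 249 and 254 to 873, 991 and 1394 CPM (2.11 ± 0.31) and PSBQ2 (AT4G05180) from 106, 112 and 108 to 1083, 1007 and 1154 CPM (3.31 ± 0.33). PSB27, which acts in the assembly and repair of photosystem II and is not a subunit of the active complex, had the smallest change, from 121, 131 and 122 to 322, 233 and 353 CPM (1.28 ± 0.31, adjusted p = 0.000512). PSBP1 (AT1G06680), for another oxygen-evolving protein, rose by 1.64 ± 0.32, PSBS (AT1G44575), which dissipates excess excitation as heat, by 1.86 ± 0.34, and the small subunits PSBR (AT1G79040), PSBW (AT2G30570), PSBX (AT2G06520), PSBY (AT1G67740) and PSBTN (AT3G21055) by 1.75 ± 0.37 (PSBX) to 2.78 ± 0.44 (PSBTN). Per kilobase of transcript, PSBR had the highest level of the 35 in this group, with a mean of 3542 CPM per kb against a median of 1089 CPM per kb over the members.

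Among the carriers, LFNR2 (AT1G20020) had the largest and FD1 (AT1G10960) the smallest change of all 35 genes. LFNR2, 1 of 2 genes for the leaf ferredoxin-NADP reductase, went from 77.6, 75.7 and 86.6 to 1040, 1411 and 1206 CPM (3.93 ± 0.37, adjusted p = 2.57e-14), and LFNR1 (AT5G66190) from 122, 126 and 114 to 698, 938 and 1141 CPM (2.94 ± 0.26). FD1, the minor leaf ferredoxin, went from 93, 112 and 94.6 to 131, 173 and 212 CPM (0.79 ± 0.31, adjusted p = 0.0335), its irradiated libraries starting just above the dark ones. FD2 (AT1G60950), the major leaf ferredoxin, went from 354, 365 and 332 to 1510, 1477 and 1378 CPM (2.05 ± 0.24). Plastocyanin carries electrons from cytochrome b6f to photosystem I, and per kilobase its gene PETE2 (AT1G20340) was at a mean of 1872 and PETE1 (AT1G76100) at 110.3 CPM per kb after 24 h R. PETE2 went from 408, 405 and 451 to 2387, 2839 and 2341 CPM (2.58 ± 0.31) and PETE1 from 31.8, 41.3 and 31.8 to 128, 87.8 and 131 CPM (1.73 ± 0.25). The Rieske protein gene PETC (AT4G03280) rose by 2.12 ± 0.29 and PETM (AT2G26500), for a small cytochrome b6f subunit, by 1.19 ± 0.33. The ATP synthase genes ATPC1 (AT4G04640, gamma subunit), ATPD (AT4G09650, delta) and ATPG (AT4G32260, b′) rose by 2.27 ± 0.24, 2.40 ± 0.28 and 1.33 ± 0.28.

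FD1 was also the weakest responder at 17°C in the other lines. Its log2 fold changes were -0.12 ± 0.31 with PHYB-CFP alone, 0.51 ± 0.31 with both transgenes, -0.03 ± 0.31 in PHYD-YFP/abcde and, with phyC present, 0.05 ± 0.31, and none passed the test. Its levels after 24 h R were 88.6, 182 and 168 CPM in PHYD-YFP/abCde against 149, 128 and 148 CPM in darkness, so these groups overlapped. PETM missed the test at 17°C in PHYB-CFP/abcde (0.29 ± 0.32) and in both lines with PHYD-YFP and no PHYB-CFP (0.42 ± 0.33 without and 0.75 ± 0.33 with phyC). At the other end, PSAH2 rose in all 10 combinations, from 2.26 ± 0.31 in PHYD-YFP/abcde at 17°C to 6.20 ± 0.38 in aBcde at 27°C. LFNR2 spanned 1.70 ± 0.33 to 6.12 ± 0.42 in the same 2 combinations, PSAK 1.89 ± 0.31 to 6.21 ± 0.38, and PSBQ2 2.10 ± 0.32 (PHYD-YFP/abcde, 27°C) to 5.34 ± 0.37.

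**Figure D2:**
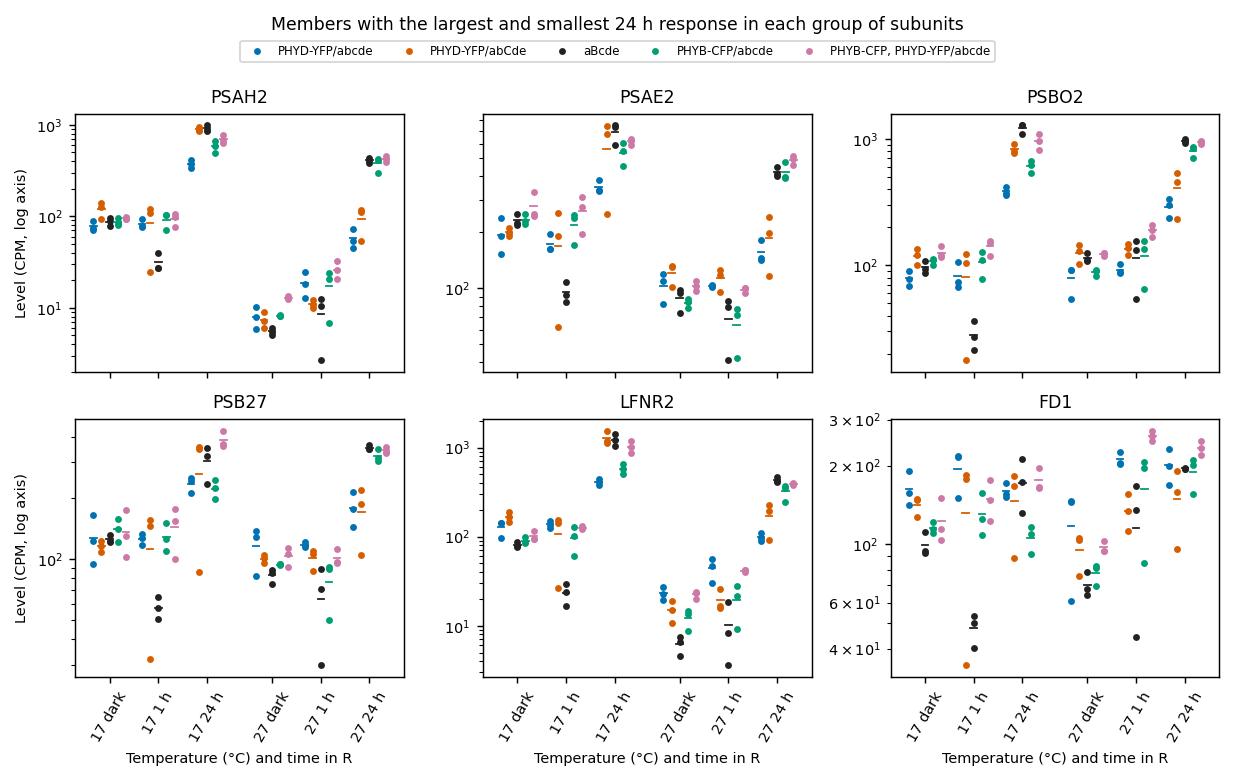
Level in each library (CPM, log axis) of the genes with the largest and the smallest 24 h response in aBcde at 17°C among photosystem I genes (PSAH2, PSAE2), photosystem II genes (PSBO2, PSB27) and carriers (LFNR2, FD1), by temperature and time in R (horizontal axis). Points are libraries, bars are means of 3 and colours are lines. PSAH2 and LFNR2 start far lower in darkness at 27°C than at 17°C, and FD1 spans a narrow range throughout.

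Genes that work beside these subunits but are not among them were described from 3 lists. Of 28 nuclear genes for factors that assemble the photosystems, cytochrome b6f and the ATP synthase, 25 rose (background 22.2% of all tested genes) and none fell after 24 h R in aBcde at 17°C, with a median log2 fold change of 1.26, below the 2.05 of the 35 subunits. HCF173, which acts in translation of the photosystem II core protein D1, rose by 3.13 ± 0.24 (SE, adjusted p = 3.72e-18), and CCB3, needed for haem attachment in cytochrome b6f, by 2.49 ± 0.39 (SE, adjusted p = 2.7e-07). Of 20 genes for cyclic electron flow and the chloroplast NDH complex, 19 rose (the same background), with a median of 2.44. PNSL3 and PNSB1, both subunits of that complex, rose by 4.03 ± 0.47 (SE, adjusted p = 7.06e-11) and 3.40 ± 0.30 (SE, adjusted p = 4.58e-15). Of the 9 genes for minor or root-type carriers, a share near the background passed: 2 rose (FDC2, 1.38 ± 0.26 (SE, adjusted p = 8.99e-06); FDC1, 1.01 ± 0.32 (SE, adjusted p = 0.00694)), 1 fell (the root ferredoxin gene FD3, -0.43 ± 0.14 (SE, adjusted p = 0.00852)), and the median was 0.16. At 27°C in aBcde the medians of the 3 lists were 1.53, 3.91 and 0.37.

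After 1 h R all 35 members passed the test in aBcde at 17°C and at most 5 in any other combination. In aBcde at 17°C the genes had fallen: their summed level was 3630, 4675 and 3827 CPM after 1 h R, below all 3 dark libraries given above. All 35 members fell (background 11.3%), by a median log2 fold change of -1.28, 33 of them by at least 2-fold, and each member was lower in every irradiated library than in any dark library, where 44.3% of all tested genes did not overlap in one direction or the other. The fall ranged from -1.86 ± 0.32 (SE, adjusted p = 1.46e-05) for PSBQ2 to -0.63 ± 0.17 (SE, adjusted p = 0.00383) for PSAN. PSBQ2 was at 23.8, 41.5 and 24.2 CPM, PSAH2 at 26.9, 40 and 27.3 CPM, PSBO2 at 21.4, 36 and 27.2 CPM and LFNR2 at 16.7, 29.4 and 23.6 CPM after 1 h R. The genes that rose least by 24 h fell too, with PSAE2 at 92.6, 109 and 84.9 CPM (-1.28 ± 0.26), PSB27 at 50.2, 64.4 and 57.1 CPM (-1.12 ± 0.31) and FD1 at 40.2, 50 and 53.3 CPM (-1.06 ± 0.32). Without replicate 1 of every group 13 of the 35 passed the test, without replicate 2, 24, and without the 6 libraries all 35. PORA stood at 350.2, 624 and 566 CPM in these 3 libraries against 2130, 1991 and 2154 CPM in darkness.

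In the other 9 combinations few members or none passed the test after 1 h. By edgeR no member passed in PHYD-YFP/abcde at 17°C (background 0.0676%, 0 members at an unadjusted p under 0.05), PHYD-YFP/abcde at 27°C (0.72%, 8), PHYD-YFP/abCde at 17°C (6.24%, 2), PHYD-YFP/abCde at 27°C (0.445%, 0), PHYB-CFP/abcde at 17°C (0.744%, 0) and PHYB-CFP, PHYD-YFP/abcde at 17°C (1.18%, 0). DESeq2 gave 0 as well, other than 1 in PHYD-YFP/abcde at 27°C. In aBcde at 27°C 1 member fell (background 1.79%): PETE1, at 11.2, 14.9 and 7.77 CPM against 18.4, 22 and 21.5 CPM in darkness (-0.87 ± 0.26, adjusted p = 0.0356). In PHYB-CFP/abcde at 27°C 2 members rose (background 3.3%), FD1 by 1.07 ± 0.31 and PSAH2 by 1.08 ± 0.33. In PHYB-CFP, PHYD-YFP/abcde at 27°C 5 members rose (5.67%). FD1 went from 94.7, 103 and 94.1 to 260.4, 272 and 248 CPM there (1.42 ± 0.31, adjusted p = 0.000764), and was at 248, 233 and 220 CPM after 24 h. The other 4 were PSBS (1.17 ± 0.34), PSAH2 (1.02 ± 0.32), ATPD (0.89 ± 0.27) and FD2 (0.72 ± 0.23). In this last line 5634, 6173 and 5864 CPM in darkness stood against sums of 7429, 8057 and 8022 CPM after 1 h R, without overlap, and 26 members were above every dark library (30.8% of all genes did not overlap). A fit on the libraries of that comparison alone called 25. In PHYD-YFP/abcde at 27°C, 16 members were above every dark library (15.4% of all genes did not overlap), and 33 of 35 log2 fold changes were above 0, with none passing. Without replicate 1 or 2 of every group no member passed in the 3 lines with calls at 27°C, and without replicate 3 the counts were 7 in aBcde, 9 in PHYB-CFP/abcde and 10 in the line with both transgenes. Without the 6 libraries the counts at 27°C were 5 in PHYD-YFP/abcde, 6 in aBcde, 10 in PHYB-CFP/abcde and 12 in PHYB-CFP, PHYD-YFP/abcde.

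Single libraries outside aBcde at 17°C showed low sums after 1 h R too. In PHYD-YFP/abCde at 17°C the sums were 11684, 13206 and 2665 CPM, with replicate 3 far below the other libraries and below all 3 dark ones. PSBO2 was at 105, 122 and 17.8 CPM and LFNR2 at 142, 152 and 26.4 CPM in these 3 libraries, and PORA at 3116, 2736 and 454 CPM. In aBcde at 27°C the sums were 4578, 5283 and 1965 CPM and in PHYB-CFP/abcde at 27°C 5564, 5561 and 2720 CPM, again with a low replicate 3, in which PORA was lowest as well (21.8, 48.3 and 4.02 CPM and 54.9, 48.9 and 14.3 CPM). All 3 low libraries are among those that stood apart over all genes. What set them apart was not tested.

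To compare the fall in aBcde at 17°C with the other responses, the differences between responses were tested, in comparisons chosen after seeing the data. The 1 h response of aBcde was lower than that of PHYD-YFP/abcde for 28 of the 35 members (background 6.42%, median difference -1.40 on the log2 scale), lower than that of PHYB-CFP/abcde for 19 (4.11%, -1.24) and lower than that of PHYB-CFP, PHYD-YFP/abcde for 26 (5.07%, -1.44). Against PHYD-YFP/abCde none passed with all libraries (background 0.0773%, 31 at an unadjusted p under 0.05, 0 by limma; median -1.04), and without the 6 libraries, replicate 3 of PHYD-YFP/abCde among them, 34 did. Within aBcde the response at 17°C was lower than at 27°C for 17 members (background 2.72%, median -1.36), and for 34 without the 6 libraries. The libraries left out include the low replicate 3 of PHYD-YFP/abCde at 17°C and of aBcde at 27°C (sums of 2665 and 1965 CPM). Leaving out such low libraries widens these differences by itself, so nothing is read from the counts of 34. All 5 counts were 0 without replicate 1 or without replicate 2 of every group. The 4 line comparisons share the aBcde libraries.

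**Figure D3:**
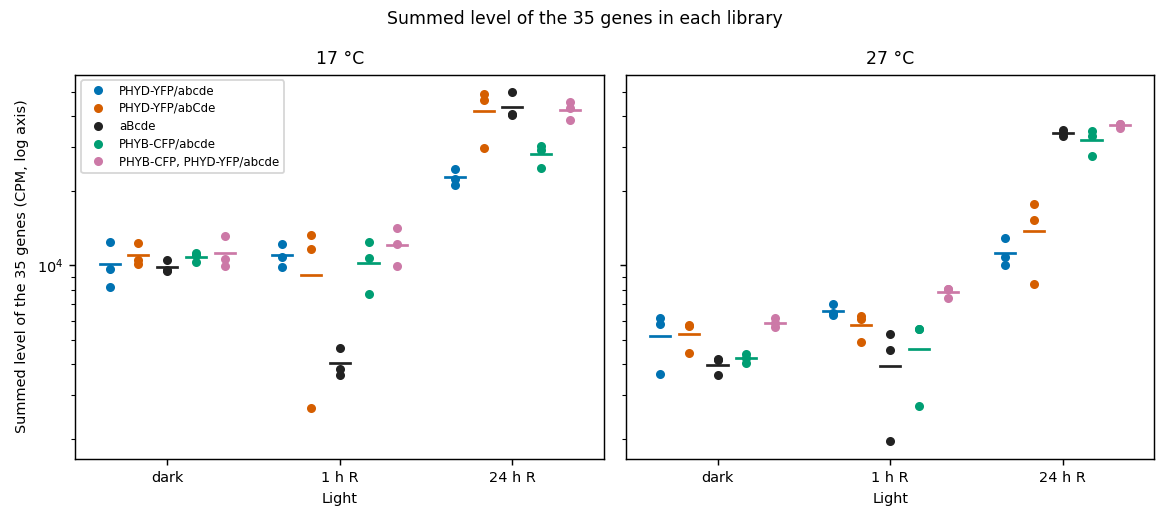
Summed level of the 35 genes in each of the 90 libraries (CPM, log axis) by light and temperature. Points are libraries, bars are means of 3 and colours are lines. The aBcde libraries at 17°C dip after 1 h R to 3630 to 4675 CPM and reach 40145 to 49866 CPM after 24 h, and dark libraries at 27°C lie below those at 17°C.

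The warm and the cool seedlings differed before any R was given. In darkness the summed level of the members was lower at 27°C than at 17°C in every line, without overlap: 5836, 6131 and 3658 against 12433, 9716 and 8174 CPM in PHYD-YFP/abcde, 5724, 4453 and 5751 against 12276, 10535 and 10162 CPM in PHYD-YFP/abCde, 4245, 4401 and 4032 against 10989, 10316 and 11184 CPM in PHYB-CFP/abcde and 5634, 6173 and 5864 against 13110, 9965 and 10625 CPM in PHYB-CFP, PHYD-YFP/abcde, beside the aBcde values above. At 27°C, 25 members were lower in PHYD-YFP/abcde (background 26.4%, median log2 difference -1.19), 25 in PHYD-YFP/abCde (28.4%, -1.14), 29 in aBcde (27%, -1.45), 30 in PHYB-CFP/abcde (25.6%, -1.57) and 24 in PHYB-CFP, PHYD-YFP/abcde (24.6%, -1.05), and none was higher. Without replicate 1 of every group the count was 16 in PHYD-YFP/abcde and 14 in PHYB-CFP, PHYD-YFP/abcde. Seedlings of the same age at 2 temperatures differ in development as well, and the effects of temperature and of the stage reached cannot be told apart. PORA was at 1991 to 4158 CPM in the dark libraries at 17°C and 37.6 to 329 CPM at 27°C, and the summed level of 10 seed storage and oil body genes in aBcde was 5.81, 12.9 and 7.78 CPM at 17°C and 267, 695 and 787 CPM at 27°C. That sum was 8.15 to 159.5 CPM at 17°C and 1858 to 3392 CPM at 27°C in PHYD-YFP/abcde, 589.7 to 1011 and 2967 to 6163 CPM in PHYD-YFP/abCde, 337 to 394 and 104 to 1040 CPM in PHYB-CFP/abcde, and 91.5 to 332 and 297 to 868 CPM in PHYB-CFP, PHYD-YFP/abcde, so the temperatures overlapped in the last 2 lines. The part of these in the members' difference was not tested.

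The temperature difference was far from uniform over the 35 genes. PSAH2 was at 78, 94.7 and 88.8 CPM at 17°C and 5.08, 5.48 and 6.01 CPM at 27°C in dark aBcde (-3.98 ± 0.36, adjusted p = 4.22e-15), and its difference in the 5 lines lay between -4.02 ± 0.35 and -2.89 ± 0.33. LFNR2 went from 77.6, 75.7 and 86.6 to 4.59, 7.41 and 6.6 CPM (-3.69 ± 0.38, adjusted p = 1.17e-12), and PSAK, for a membrane subunit of photosystem I, differed by -3.56 ± 0.35 and PSAG, for another, by -3.29 ± 0.40 in aBcde. By contrast PSBO2, at 93.2, 108 and 87.6 and 111, 124 and 108 CPM, passed in no line (-0.29 ± 0.29 to 0.25 ± 0.29). PSBR, PSB27, PETC and FD1 also passed in no line, with differences between -0.67 ± 0.34 (PSBR, PHYB-CFP/abcde) and -0.13 ± 0.31 (PSB27, PHYD-YFP/abcde). All 12 photosystem I genes were lower at 27°C in aBcde (background 27%) and in PHYB-CFP/abcde (25.6%), and 9 of 12 photosystem II genes in each of these lines. In aBcde 18 of the 28 assembly genes (median -0.79) and 17 of the 20 cyclic electron flow genes (median -2.37) were lower at 27°C as well (the same background of 27%). Of the latter 1 was higher, as were 5701 of the 20695 tested genes.

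**Figure D4:**
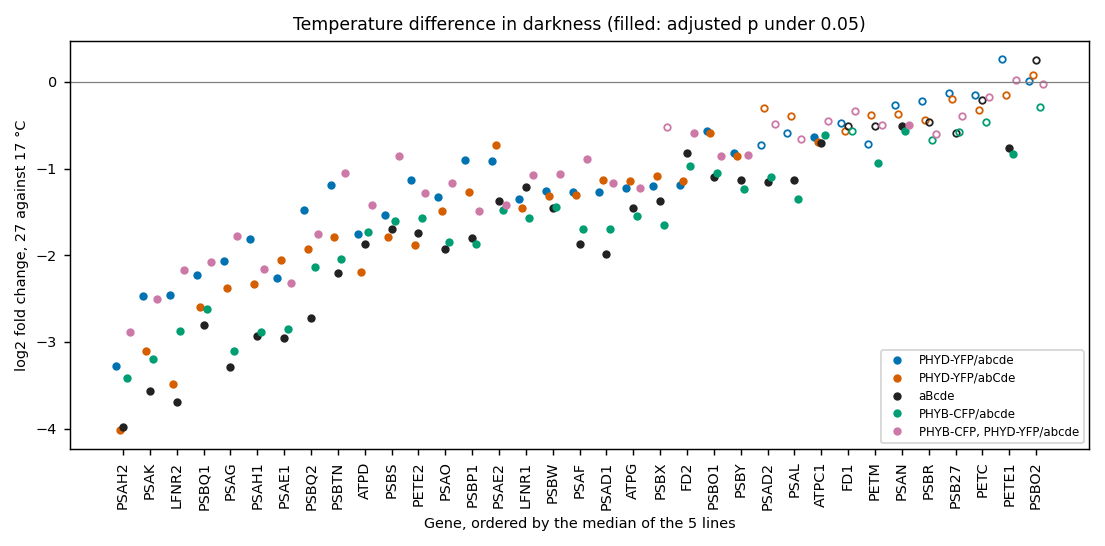
Log2 fold change between dark seedlings at 27 and 17°C (vertical axis) for each of the 35 genes (horizontal axis, ordered by the median of the lines), with 1 point per line, filled where the adjusted p was under 0.05. PSAH2, PSAK and LFNR2 lie lowest, and PSBO2 lies near 0 in all 5 lines.

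Against these unequal starting levels, the 24 h response was larger at 27°C than at 17°C in the lines with phyB or PHYB-CFP. The difference of the responses, 17 minus 27°C, was negative for 17 members in aBcde (background 6.36%, median -1.33), 29 in PHYB-CFP/abcde (5.76%, -1.76) and 7 in PHYB-CFP, PHYD-YFP/abcde (4.98%, -0.78), and positive for none. Without the 6 libraries the counts were 26, 32 and 17. Without replicate 1, 2 and 3 of every group in turn they were 7, 7 and 25 in aBcde, 10, 8 and 31 in PHYB-CFP/abcde and 0, 4 and 13 in PHYB-CFP, PHYD-YFP/abcde. In aBcde the mean sum after 24 h R was 43552 CPM at 17°C and 34191 CPM at 27°C, while the dark means were 9863 and 3992 CPM. Photosystem I genes led, with PSAG at -3.45 ± 0.54 (SE, adjusted p = 2.99e-06) in aBcde and -4.14 ± 0.54 in PHYB-CFP/abcde. PSAN, at 0.00 ± 0.24, and PSBO2, at 0.58 ± 0.41, did not pass in aBcde.

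In the 2 lines with PHYD-YFP and no phyB few members passed, each with the larger response at 17°C. The share in PHYD-YFP/abCde was near that of all tested genes, and nothing particular to the members is read from these few calls. Whether the temperature dependence differs between the lines was not tested. In PHYD-YFP/abcde 1 member differed (background 0.416%, median -0.03), PSAN, whose response was larger at 17°C (1.05 ± 0.24, adjusted p = 0.00901). In PHYD-YFP/abCde 3 members had the larger response at 17°C (background 6.9%, median 0.39): PSAN (1.49 ± 0.24, adjusted p = 2.57e-06), PSAD2 (1.39 ± 0.46, adjusted p = 0.0313) and PSBO1 (0.88 ± 0.30, adjusted p = 0.0322). The PSBO1 difference was -0.07 in limma on quantile-normalized values. Without the 6 libraries 11 members differed in PHYD-YFP/abCde, and 2, 1 and 10 without replicate 1, 2 and 3 of every group. The summed level after 24 h R in this line was higher at 17°C in each library than in any library at 27°C, as given above, with replicate 3 at 27°C the lowest at 8404 CPM. PSBO1 reached 3049, 4084 and 3792 CPM at 17°C and 1445, 1609 and 892 CPM at 27°C.

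The lines were then compared directly. PHYD-YFP/abCde had a larger 24 h response than PHYD-YFP/abcde at 17°C for 2 members (background 2.36%, median difference 0.65), PSBO1 (0.94 ± 0.30, adjusted p = 0.0487) and PSAN (0.78 ± 0.24, adjusted p = 0.0371), and for 19 without the 6 libraries, against 0, 0 and 8 without replicate 1, 2 and 3 of every group. These lines differ in phyC and in the PHYD level given above, and the effects of the 2 cannot be told apart. At 27°C none differed (background 2.23%, 4 at an unadjusted p under 0.05, 0 by DESeq2), and 13 did without replicate 3 of every group. Between PHYD-YFP/abCde and aBcde none differed at 17°C (background 4.67%, median -0.42, 8 at an unadjusted p under 0.05, 0 by DESeq2), and 7 did without replicate 3 of every group or without the 6 libraries. At 27°C the response of PHYD-YFP/abCde was smaller for 30 members (background 3.07%, median -1.77). PSAK differed most (-2.79 ± 0.45, adjusted p = 1.73e-05), and PSBR, PSBS, PSB27, PETM and FD1 did not pass, with differences of -1.50 ± 0.47 to -0.83 ± 0.44. That count was 18 in limma on quantile-normalized values and 4, 17 and 31 without replicate 1, 2 and 3 of every group.

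PHYB-CFP/abcde responded less than aBcde for 2 members at 17°C (background 2.15%, median -0.79), PSBTN (-1.93 ± 0.59, adjusted p = 0.0402) and LFNR1 (-1.80 ± 0.34, adjusted p = 0.000381), and for 16 without the 6 libraries, against 1, 0 and 9 without replicate 1, 2 and 3 of every group. LFNR1 was at 302, 261 and 355 CPM after 24 h R in PHYB-CFP/abcde, below every aBcde library. At 27°C none differed (background 0.101%, median -0.28, 1 at an unadjusted p under 0.05, 0 by DESeq2). With both transgenes the response of LFNR1 at 17°C was larger than with PHYB-CFP alone (1.16 ± 0.34, adjusted p = 0.031). This single call is near the background of 2.63%, and the median difference of the members was 0.67. Without the 6 libraries 14 members had the larger response, against 0, 0 and 5 without replicate 1, 2 and 3 of every group. These lines also differ in PHYB, at a median of 586 CPM with both transgenes and 445 CPM with PHYB-CFP alone. The effects of PHYD-YFP and of the PHYB level cannot be told apart. At 27°C none differed (background 0.00483%, median -0.26, 0 at an unadjusted p under 0.05, 0 by DESeq2). None of the 35 differences there was above 0, and the median of all tested genes was 0.03. These comparisons share libraries, so they are not independent of each other.

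In darkness few members passed the test between lines. FD2 and LFNR2 accounted for 5 of the 7 calls, all of them higher in a line with PHYD-YFP. The counts per comparison were small and mostly near the share of all tested genes, so nothing particular to the members is read from these counts. At 27°C, however, all 35 log2 differences were above 0 in PHYD-YFP/abCde against aBcde (median 0.47). The same held with both transgenes against PHYB-CFP alone (median 0.43). The medians of all tested genes there were 0.01 and -0.01. In the other comparisons the members' medians lay between -0.01 and 0.24. The numbers of higher members were 3 in PHYD-YFP/abCde against aBcde at 17°C (background 7.61%), namely LFNR2 (1.07 ± 0.33), FD2 (0.98 ± 0.23) and ATPD (0.77 ± 0.27), and 1 at 27°C (3.51%), LFNR2 again (1.26 ± 0.38). Without the 6 libraries these counts were 8 and 10, and both were 0 without replicate 1 or 2 of every group. Against PHYB-CFP/abcde, PHYB-CFP, PHYD-YFP/abcde had 1 higher member at 17°C (background 3.53%), FD2 (1.00 ± 0.23), and 2 at 27°C (1.68%), FD2 (1.37 ± 0.23, adjusted p = 2.15e-05) and PSAF (0.96 ± 0.26). FD2 was at 509, 535 and 519 CPM in the line with both transgenes and 208, 211 and 184 CPM with PHYB-CFP alone. By edgeR and by DESeq2 no member differed between the lines with and without phyC (both PHYD-YFP) at 17°C (background 1.83%, 2 members at an unadjusted p under 0.05) or 27°C (4.01%, 1), or between PHYB-CFP/abcde and aBcde at 17°C (1.87%, 0) or 27°C (2.06%, 2). No member was lower in the first line of any of these 8 comparisons. Without replicate 1, 2 and 3 of every group in turn, the calls for both transgenes against PHYB-CFP alone numbered 0, 0 and 1 in the cool and 1, 1 and 5 in the warm, and without replicate 3 PHYD-YFP/abCde against PHYD-YFP/abcde held 2 at 17°C and 3 at 27°C and PHYB-CFP/abcde against aBcde 2 at 27°C.

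Where a subunit has a pair of genes, the share of the pair's counts that falls on 1 of them does not depend on library size, and it was compared over all 5 lines by a permutation test within line (15 against 15 libraries, two-sided, 24 comparisons). The share shifted in 23 of the 24 comparisons. For 21 of these the adjusted p was at most 2.29e-05, with raw p-values at or next to the smallest that the permutations can give (1e-05). Reads that match both genes of a pair equally may have been lost or split in counting, so the shares themselves are uncertain. The comparisons at one temperature share their dark libraries with the comparison between temperatures.

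The PSAE pair moved furthest, by 36.9 percentage points at 27°C with R. PSAE1 held 49.3, 50.6 and 51.1% of the pair in the 3 dark aBcde libraries at 17°C and 25.9, 25.4 and 25.4% at 27°C, and over the lines its mean share went from 51.1 to 29.8%. After 24 h R it held 63.4, 67.4 and 70.7% at 17°C and 71.6, 72.2 and 72.7% at 27°C, with means going from 51.1 to 65.1% and from 29.8 to 66.7%. So PSAE1 fell further with warmth and rose further with R than PSAE2. The other pairs of photosystem I went differently. The share of PSAH1 rose with warmth in darkness, from 63.6 to 78.9%. With 24 h R it fell from 63.6 to 34.7% in the cool and from 78.9 to 52.9% in the warm seedlings. PSAH2 moved more both times. In aBcde PSAH1 held 67, 70.3 and 64.9% in darkness and 34.9, 35.6 and 44.4% after 24 h R at 17°C. The share of PSAD1 fell from 81.6 to 73.3% with warmth and from 81.6 to 76.9% with R at 17°C. At 27°C it fell from 73.3 to 71.8% (adjusted p = 0.0162), in 4 of 5 lines, and this did not pass without replicate 2 or without replicate 3.

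Both pairs of the oxygen-evolving complex moved towards the second gene with R. PSBQ1 held 70.4, 69 and 70.1% in darkness and 44.6, 49.6 and 54.7% after 24 h R in aBcde at 17°C, and its mean share over the lines went from 69.7 to 43.8% at that temperature and from 62.7 to 49.7% at 27°C. Both PSBQ genes have 2 G-boxes in the stretch shown. PSBO1 kept most of its pair, with means going from 90.2 to 81.1% and from 83.7 to 78.4%. With warmth in darkness the shares of PSBQ1 and PSBO1 fell as well, from 69.7 to 62.7% and from 90.2 to 83.7%. LFNR1 rose from 55.5 to 78.3% of its pair with warmth in darkness and held 92.1, 88.3 and 87.6% in aBcde at 27°C. With R it fell from 55.5 to 38% at 17°C, and at 27°C from 78.3 to 52.9%. Neither gene of this pair held a G-box in the 250 bases searched. FD1, the lesser ferredoxin, rose from 18.1 to 22.9% with warmth and fell from 18.1 to 7.81% and from 22.9 to 14.3% with R. PETE1 rose from 5.55 to 11.6% of plastocyanin counts with warmth and fell from 11.6 to 9.76% with R at 27°C (adjusted p = 0.000425), while at 17°C the change from 5.55 to 4.53% did not pass (adjusted p = 0.0712, lower in 3 of 5 lines).

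**Figure D5:**
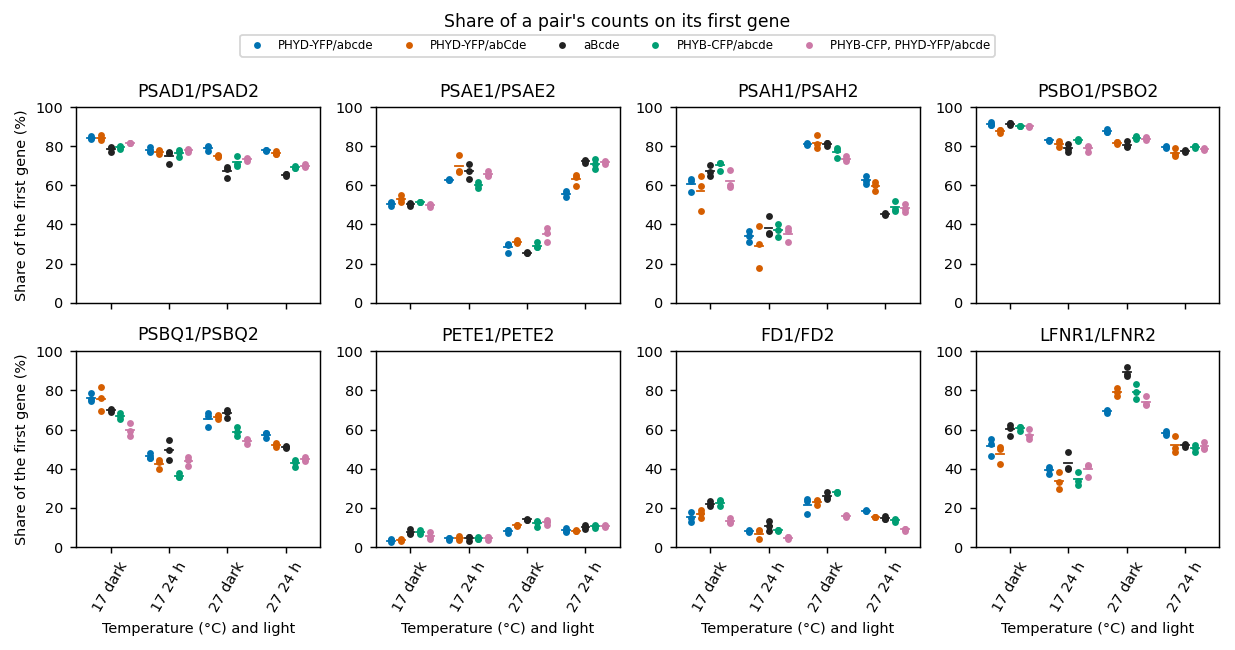
Share of the counts of each pair of genes that falls on the first gene named (vertical axis, %), by temperature in darkness and after 24 h R (horizontal axis). Points are libraries, bars are means of 3 and colours are lines. PSAE1 falls to 29.8% of its pair in darkness at 27°C and rises to 66.7% after 24 h R, while PSAH1, PSBQ1 and LFNR1 fall with R at both temperatures.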

How the data were processed

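Gene counts of 90 libraries were used as the authors deposited them, without normalization. Per the labels and the study's methods, the authors checked reads with FastQC 0.11.9, trimmed them with Trimmomatic 0.39, aligned them with STAR 2.7.8a, sorted them with Samtools 1.11 and counted them per gene with htseq-count 0.13.5. Whether counting used the strand is not given in the sources used here. Of the 35 genes, 11 overlap a neighbouring gene (PSAD2, PSAE1, PSAE2, PSAG, PSAH1, PSAH2, PSAN, PSBP1, PSBR, FD1 and LFNR1), and reads shared with a neighbour or a paralog make their counts uncertain. All count columns were mapped to a sample (0 were not).

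The 279 organelle genes and 627 tRNA and rRNA genes were removed, and the filter on low counts required 5 counts in 23 libraries (25%) and kept 20695 genes. Libraries were scaled by TMM in edgeR 4.0.16 (R 4.3.3), with factors of 0.865 to 1.102, where the study names quantile normalization. A quasi-likelihood model with the 30 group means over all libraries gave log2 fold changes, SEs and p-values, adjusted by Benjamini-Hochberg over all tested genes of a comparison and called at an adjusted p under 0.05. With 3 libraries a group, an exact permutation test of a single comparison cannot go below 0.1, so none was run. CPM are counts divided by the TMM-scaled library total. The share of a gene within its pair was tested with 100000 permutations of the labels within line. The script was tested on simulated data.

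Values in every library are given for the members with the largest and the smallest 24 h response in aBcde at 17°C within each group of subunits, for both genes of the pairs whose share passed, and for members called against the common direction. From the lists of assembly, cyclic electron flow, and minor and root-type genes, up to 2 genes called each way are named. Seed storage and oil body, root hair and etiolation (PORA) genes describe the seedlings. The members and lists were chosen with earlier results of these data known. Alternatives were DESeq2 1.42.0, limma 3.58.1 on quantile-normalized log2 CPM, no filter or a mean count of at least 50, only the libraries of a comparison, a replicate block, and leaving out each replicate number, and, added after seeing the data, the 6 libraries that stood apart. The comparisons of 1 h responses were added after seeing the data as well.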

Additional observations from a re-analysis of the deposited data

Results flagged for a closer look

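The size of the response differed between temperatures or lines for some of the 35 genes, each time by a test of the difference itself (edgeR quasi-likelihood test on the difference of 2 responses). Percentages are the shares of all tested genes called the same way. Between 17 and 27°C, the 24 h response was larger at 17°C for 1 member in PHYD-YFP/abcde (0.416%) and 3 in PHYD-YFP/abCde (6.9%), the second share being near its background. It was larger at 27°C for 17 members in aBcde (6.36%), 29 in PHYB-CFP/abcde (5.76%) and 7 in PHYB-CFP, PHYD-YFP/abcde (4.98%).

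Between lines at 17°C, the 24 h response was larger in PHYD-YFP/abCde than in PHYD-YFP/abcde for 2 members (2.36%), smaller in PHYB-CFP/abcde than in aBcde for 2 (2.15%) and larger with PHYB-CFP and PHYD-YFP together than with PHYB-CFP for 1 (2.63%). Nothing particular to the members is read from these counts of 1 or 2. At 27°C it was smaller in PHYD-YFP/abCde than in aBcde for 30 (3.07%).

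The 1 h response of aBcde at 17°C was lower than that of PHYD-YFP/abcde for 28 members (6.42%), of PHYB-CFP/abcde for 19 (4.11%) and of PHYB-CFP, PHYD-YFP/abcde for 26 (5.07%), and lower than its own response at 27°C for 17 (2.72%). Against PHYD-YFP/abCde 0 passed in edgeR and in limma, with 31 at an unadjusted p under 0.05. These 5 comparisons were chosen after the fall in aBcde had been seen, and all 5 counts were 0 without replicate 1 or without replicate 2 of every group.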

How the results depend on the processing

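The 3 libraries per group and the 6 that stood apart set the limits here. Single calls (539) were followed for the 24 h responses, temperature in darkness, and the temperature dependence and line differences of the 24 h response. Those of the 1 h responses and of the lines in darkness were followed as counts only. Over the alternatives run, none of the 539 changed direction other than PSBO1 in the temperature dependence of PHYD-YFP/abCde (0.88, and -0.07 in limma on quantile-normalized values). The cause was not tested. Single members lost their call 141 times of 539 without replicate 1, 112 times without replicate 2 and 4 times without replicate 3, 34 times in quantile-normalized limma, 29 times with only the libraries of a comparison, 2 times in DESeq2 and 0 times without the 6 libraries. Counts within 1.5 times of the main count were taken as unchanged, and by that rule other filters on low counts changed 1 count. Quantile normalization moved the median of all genes in the 24 h response at 27°C to -0.13 in aBcde and -0.12 in both lines with PHYB-CFP. Some of these fits use fewer libraries than the main fit. What made counts smaller or larger was not tested.

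Without the 6 libraries, the 1 h counts at 27°C were 5 in PHYD-YFP/abcde (also 1 in DESeq2 and 1 with a mean count of at least 50), 6 in aBcde, 10 in PHYB-CFP/abcde and 12 with both transgenes. The temperature dependence then held 11 members in PHYD-YFP/abCde, 26 in aBcde and 17 with both transgenes. Line differences of the 24 h response held 19 (17°C) and 1 (27°C) for PHYD-YFP/abCde minus PHYD-YFP/abcde, 7 for PHYD-YFP/abCde minus aBcde at 17°C, 16 for PHYB-CFP/abcde minus aBcde at 17°C and 14 for both transgenes minus PHYB-CFP/abcde at 17°C. In darkness they held 1 for PHYD-YFP/abCde minus PHYD-YFP/abcde at 27°C, 8 and 10 for PHYD-YFP/abCde minus aBcde, 2 for PHYB-CFP/abcde minus aBcde at 27°C and 5 for both transgenes minus PHYB-CFP/abcde at 27°C. The 1 h response of aBcde then differed for 34 members from PHYD-YFP/abCde, 31 from PHYB-CFP/abcde and 34 between temperatures. Nothing is read from the counts of 34, because low libraries of the groups compared with aBcde at 17°C were among those left out.

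With only the libraries of a comparison, the counts were 18 for 24 h R in PHYD-YFP/abCde at 17°C, 1 for 1 h R at 27°C in PHYB-CFP/abcde and 25 with both transgenes, 1 and 24 for the temperature dependence in PHYD-YFP/abCde and with both transgenes, 0, 10 and 5 for the 24 h line differences at 17°C (PHYD-YFP/abCde minus PHYD-YFP/abcde, PHYB-CFP/abcde minus aBcde, both transgenes minus PHYB-CFP/abcde), 0 and 0 for PHYD-YFP/abCde minus aBcde in darkness and 6 for both transgenes minus PHYB-CFP/abcde in darkness at 27°C. Quantile-normalized limma gave 0 and 3 for 1 h R at 27°C in PHYB-CFP/abcde and with both transgenes, 0, 1 and 0 for the same 24 h line differences at 17°C, 18 for PHYD-YFP/abCde minus aBcde after 24 h R at 27°C, 0 for it in darkness at 27°C and 10 for the 1 h response of aBcde between temperatures.

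Leaving out replicate 1, 2 or 3 of every group gave these ranges of counts. For 24 h R they were 12 to 27 and 15 to 23 in PHYD-YFP/abcde at 17 and 27°C. For 1 h R they were 13 to 35 in aBcde at 17°C, and at 27°C 0 to 4 in PHYD-YFP/abcde, 0 to 7 in aBcde, 0 to 9 in PHYB-CFP/abcde and 0 to 10 with both transgenes. For temperature in darkness they were 16 to 26 in PHYD-YFP/abcde and 14 to 28 with both transgenes. For the temperature dependence they were 0 to 1 in PHYD-YFP/abcde, 1 to 10 in PHYD-YFP/abCde, 7 to 25 in aBcde, 8 to 31 in PHYB-CFP/abcde and 0 to 13 with both transgenes. For line differences after 24 h R they were 0 to 8 and 0 to 13 (PHYD-YFP/abCde minus PHYD-YFP/abcde, 17 and 27°C), 0 to 7 and 4 to 31 (PHYD-YFP/abCde minus aBcde), 0 to 9 (PHYB-CFP/abcde minus aBcde, 17°C) and 0 to 5 (both transgenes minus PHYB-CFP/abcde, 17°C). In darkness the same line differences gave 0 to 2 and 0 to 3, 0 to 8 and 0 to 5, 0 to 2 (27°C), and 0 to 1 and 1 to 5 (both temperatures). For the 1 h response of aBcde they were 0 to 32 against PHYD-YFP/abcde, 0 to 34 against PHYD-YFP/abCde, 0 to 22 against PHYB-CFP/abcde, 0 to 34 against the line with both transgenes and 0 to 33 between temperatures. The shift of the PSAD1 share with R at 27°C lay between -1.96 and -1.15 percentage points and did not pass without replicate 2 or 3, while the other pair shares kept their calls.

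Replicate numbers did not pair the libraries. Deviations of same-numbered libraries from their group means correlated at -0.153 to 0.192 (median -0.005), over 0.1 in 8 of 90 pairs. With a replicate block the count became 0 for 1 h R in PHYB-CFP/abcde at 27°C, 1 for PHYB-CFP/abcde minus aBcde after 24 h R at 17°C and 11 for the 1 h response of aBcde between temperatures, and 6 single members lost their call. All other counts with the block stayed within 1.5 times. No paired analysis was possible for the dark comparisons of temperatures or lines in edgeR because the block lies within line and temperature.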
